A study of Homo sapiens with 6 samples.

Results

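The proteasome genes of TC28a2 chondrocytes were taken as every gene whose symbol is PSMA, PSMB, PSMC, PSMD, PSME, PSMF or PSMG followed by a number, together with POMP and ADRM1. The rule gave 50 of the 60623 genes in the table: 8 in the α ring of the 20S core, 8 β subunits listed as constitutive, 3 immunoproteasome β subunits, 6 ATPases and 12 non-ATPase subunits of the 19S particle, 5 activators and inhibitors, and 8 assembly chaperones. The constitutive β list holds PSMB1 to PSMB7 and also PSMB11, which is thymus-specific and not constitutive. TC28a2 is an immortalized human chondrocyte line, grown here with either the class I histone deacetylase (HDAC) inhibitor mocetinostat or its solvent, DMSO. RNA-Seq was done on 3 samples per condition, which the study describes as independent experiments, at a mocetinostat dose of 2 μM given over 24 hours. The line is a single immortalized culture, with no other line or donor in the series. DMSO samples held 4873426 to 11031132 counts, and mocetinostat samples held 1619344 to 5089542.

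The proteasome is the protease that degrades ubiquitin-tagged proteins in the cytosol and nucleus. Its barrel-shaped core has outer α rings, which gate the entrance, and inner β rings, which carry the catalytic sites on PSMB5, PSMB6 and PSMB7. A cap binds the ubiquitin chain, removes it, and feeds the unfolded protein into the core with a ring of ATPases. In cells exposed to interferon, PSMB8, PSMB9 and PSMB10 replace PSMB5, PSMB6 and PSMB7 and form the immunoproteasome, whose peptides suit loading on MHC class I. The transcription factor NFE2L1, often called NRF1, raises the genes of the whole particle when proteasome activity is lost. Chondrocytes secrete large amounts of matrix protein, and misfolded secretory proteins in such cells are removed through this system.

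The upstream sequences of 6 of these genes are shown because they belong to the members that moved apart. PSMB5 is the constitutive subunit whose immunoproteasome counterpart is PSMB8, while PSMB9 was the 1 member that rose and PSMB10 went from 59 summed counts to 0. PSME1 and PSME2 encode the partner chains of a single activator ring, and their levels separated under mocetinostat. Each line gives the 250 bases before the RefSeq start site (GRCh38.p14), 5′ to 3′ on the gene's own strand, with matches in capitals.
PSMB5, chr14:23034901-23035150, minus strand: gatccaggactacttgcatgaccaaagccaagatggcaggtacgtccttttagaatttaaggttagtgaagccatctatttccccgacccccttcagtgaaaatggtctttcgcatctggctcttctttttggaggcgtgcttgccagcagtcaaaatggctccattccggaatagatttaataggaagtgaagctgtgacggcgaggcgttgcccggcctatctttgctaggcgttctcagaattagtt
PSMB8, chr6:32844048-32844297, minus strand: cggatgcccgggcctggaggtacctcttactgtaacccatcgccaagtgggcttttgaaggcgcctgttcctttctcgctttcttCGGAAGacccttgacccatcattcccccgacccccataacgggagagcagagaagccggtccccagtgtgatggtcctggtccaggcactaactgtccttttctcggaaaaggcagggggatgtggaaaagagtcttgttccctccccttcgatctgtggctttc
PSMB9, chr6:32853942-32854191, plus strand: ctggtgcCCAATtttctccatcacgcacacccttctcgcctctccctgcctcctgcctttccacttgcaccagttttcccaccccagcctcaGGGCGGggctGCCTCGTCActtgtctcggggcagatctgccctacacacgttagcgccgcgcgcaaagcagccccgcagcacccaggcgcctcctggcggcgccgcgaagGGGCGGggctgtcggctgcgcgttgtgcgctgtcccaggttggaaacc
PSMB10, chr16:67936851-67937100, minus strand: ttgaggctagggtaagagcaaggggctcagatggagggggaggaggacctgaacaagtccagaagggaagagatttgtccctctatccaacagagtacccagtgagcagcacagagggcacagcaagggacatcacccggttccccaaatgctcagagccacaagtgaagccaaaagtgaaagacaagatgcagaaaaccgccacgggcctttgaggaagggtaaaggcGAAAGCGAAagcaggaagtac
PSME1, chr14:24135944-24136193, plus strand: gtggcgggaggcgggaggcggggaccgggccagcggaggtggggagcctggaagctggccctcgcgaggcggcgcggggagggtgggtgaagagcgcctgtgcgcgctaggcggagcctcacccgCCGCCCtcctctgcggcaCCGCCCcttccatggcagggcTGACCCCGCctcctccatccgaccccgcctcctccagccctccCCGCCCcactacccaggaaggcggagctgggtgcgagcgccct
PSME2, chr14:24146611-24146860, minus strand: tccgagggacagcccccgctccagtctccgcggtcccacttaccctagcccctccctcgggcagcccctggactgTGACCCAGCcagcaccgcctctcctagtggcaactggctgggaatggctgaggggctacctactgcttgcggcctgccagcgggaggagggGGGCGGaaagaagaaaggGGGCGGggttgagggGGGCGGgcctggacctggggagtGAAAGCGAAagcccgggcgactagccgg

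Capitals mark matches on either strand to 5 motifs: TGACNNNGC (the antioxidant response element core bound by NRF1), CCAAT (NF-Y), CGGAAG (ETS factors), GGGCGG (GC box), and GAAANNGAA (the core of the interferon-stimulated response element, ISRE). RefSeq promoter windows were matched for 44 of the 50 genes, each with its start at that of the GENCODE canonical transcript, and not for PSMA7, PSMB1, PSMB6, PSMB7, PSMD4 or PSMG3. Each member counts with 1 window, while both backgrounds count every window of a gene, 15259 for the tested genes. CGGAAG was found in 25 of the 44 windows (56.8%), against 16.5% of all 35116 windows and 24.6% of the windows of tested genes. TGACNNNGC was found in 11 of 44 (25%), against 10.9% of all windows and 11.7% of those of tested genes. For CCAAT the share was 40.9% in the proteasome genes and 32% in all windows, and for GGGCGG it was 61.4% against 42.6%, or 63.9% in windows of tested genes. GAAANNGAA was found in 5 windows (11.4%), those of PSMB4, PSMB10, PSME2, POMP and PSMG4, in 6.88% of all windows, and in 5.35% of those of tested genes. Among the lines above, PSMB10 and PSME2 each hold the ISRE letters close to the start, at 21 and 28 bases before it, and PSMB9, PSME1 and PSME2 hold the antioxidant response element core. These are letter matches and were not tested for binding.

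Most proteasome mRNAs were lower in mocetinostat-treated cells. Of the 47 genes that passed the expression filter, 36 (76.6%) were lower at an adjusted p under 0.05, where 31.4% of all 13966 genes tested were lower. Only 1 was higher, PSMB9, against a background of 32.9% of all genes tested, and 10 did not pass. With the study's thresholds (adjusted p under 0.05 and absolute log2 fold change over 1), 10 were downregulated genes (DRGs), against 8.18% of all genes, and 1 was an upregulated gene (URG), against 20.2%. The DRGs were PSMA1, PSMB2, PSMB5, PSMB6, PSMB7, PSMC3, PSMC4, PSMC6, PSMD11 and PSMG2. Of these, PSMA1, PSMB7, PSMC3, PSMC4 and PSMG2 lay within 1 standard error (SE) of the fold change threshold, as did the URG PSMB9. The 3 mocetinostat samples lay below the 3 DMSO samples without overlap in 41 of the 47 genes, against 32.8% of all genes. The median log2 fold change of the 47 was −0.63, and that of all genes tested was −0.0021. Highly expressed genes as a whole were more often lower: among the 2580 genes at or above the median level of the members (91.1 CPM, counts scaled to the effective size of the library), 50.3% were lower and the median log2 fold change was −0.21. In bulk RNA, fewer cells and less RNA per cell cannot be told apart, and CPM gives the share of a gene in the counts of its library.

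The direction of single members depended on how the libraries were scaled. GAPDH fell from 2953–3132 CPM in DMSO samples to 2034–2187 CPM in mocetinostat samples. Scaling each library to its GAPDH count moved the median of all genes tested up to 0.53, left 12 proteasome genes lower and 7 higher at the same threshold, and gave 18 of the 47 a positive sign in place of a negative one. Of all 13966 genes tested, 7710 were then higher and 1371 lower. Under that scaling 45 of the 47 still lay below the median of all genes, as they did with the TMM factors. TMM factors computed on all genes, with no expression filter, moved the median of the genes tested here by −0.25. The sign of small differences therefore depends on the choice. This holds for increases up to about 0.25 with no filter, and for decreases up to about 0.53 with GAPDH scaling. The values that follow are with TMM factors after the filter.

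Summed over their members, the subcomplexes separated into a group near 70% of the DMSO level and a group near 50%. The 20S α genes summed to 782, 751 and 750 CPM in the DMSO samples and 533, 518 and 528 CPM in the mocetinostat samples, which is 69.1% ± 0.97 (SD, n = 3) of the DMSO mean. The constitutive β genes went from 976, 862 and 851 CPM to 446, 427 and 442 CPM, or 48.9% ± 1.10 (SD, n = 3). Of the cap, the ATPases went from 673, 679 and 724 CPM to 363, 344 and 383 CPM, or 52.5% ± 2.82 (SD, n = 3). Conditions did not overlap in any of these sums. The non-ATPase sum stood at 71.2% ± 0.70 of the DMSO mean, the activators and inhibitor at 70.1% ± 2.74, and the chaperones at 67.0% ± 1.98 (SD, n = 3 each). For the immunoproteasome genes the sum was higher, at 114% ± 8.16 (SD, n = 3), and the lowest mocetinostat sample (48.07 CPM) lay just above the highest DMSO sample (47.9 CPM). Medians of the log2 fold change followed the same order, at −1.08 for constitutive β, −0.91 for the ATPases, −0.57 for the chaperones, −0.54 for α, −0.50 for activators and inhibitor, and −0.46 for the non-ATPases. With GAPDH scaling the medians of β and the ATPases were −0.54 and −0.37, and those of the non-ATPases and of the activators and inhibitor turned to 0.08 and 0.04. No test of the difference between subcomplexes was run.

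**Figure D1:**
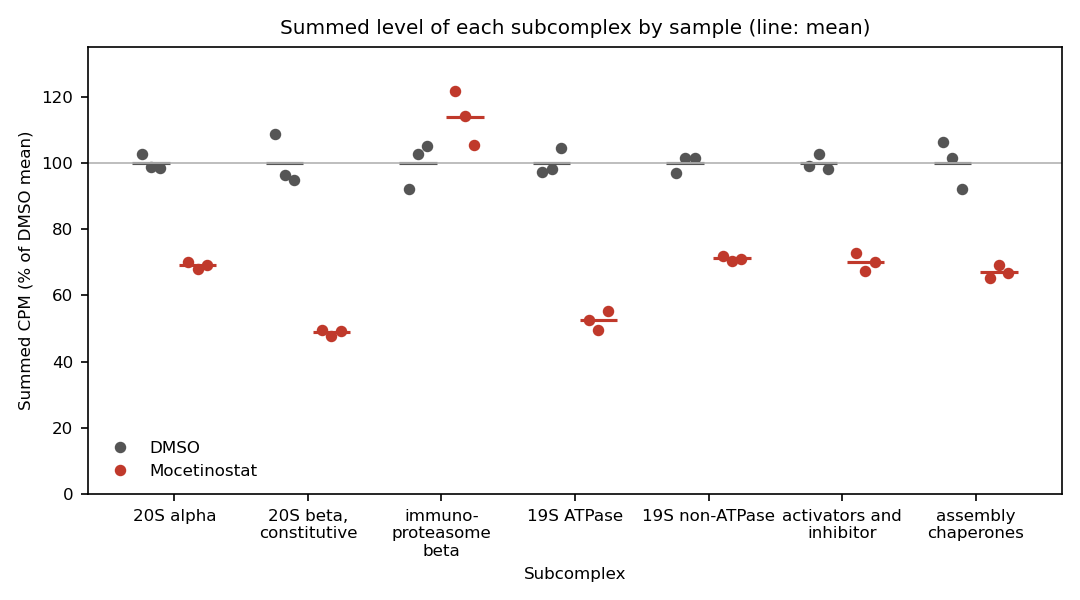
Summed CPM of each subcomplex in every sample, as a percentage of the DMSO mean (vertical axis), for 7 subcomplexes (horizontal axis), with grey points for DMSO, red points for mocetinostat, and a line at each mean. The red points of the constitutive 20S β genes and the 19S ATPases sit between 47.6% and 55.3%, those of the α, non-ATPase, activator and chaperone genes between 65.2% and 72.9%, and those of the immunoproteasome genes above 105%.

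The subunits that carry the constitutive catalytic sites were among the most reduced. PSMB6, the caspase-like subunit, was at 114, 127 and 132 CPM in DMSO samples and 32.9, 44.6 and 43.9 CPM in mocetinostat samples. Its log2 fold change of −1.66 (SE 0.13, adjusted p = 1.37e-19) was the lowest of all 47 members, a level 3.17-fold lower. PSMB5, the chymotrypsin-like subunit and main target of the proteasome inhibitors used against myeloma, was at 127, 125 and 138 CPM and then at 53.7, 51.4 and 48.9 CPM. It was 2.52-fold lower (log2 fold change −1.33, SE 0.11, adjusted p = 4.68e-17). PSMB7, the trypsin-like subunit, was at 176, 139 and 146 CPM and then at 72.8, 70.0 and 75.8 CPM, with a log2 fold change of −1.08 (SE 0.11, adjusted p = 3.09e-14). In each of the 3 genes, every mocetinostat sample was below every DMSO sample by a wide gap, and all 3 stayed lower with GAPDH scaling, where their log2 fold changes were −1.13, −0.80 and −0.54. Together they summed to 40.4% ± 1.17 (SD, n = 3) of the DMSO mean.

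The 4 constitutive β subunits without a catalytic site, PSMB1 to PSMB4, summed to 56.0% ± 2.6 (SD, n = 3). PSMB2 was the lowest, at 175, 159 and 151 CPM against 72.0, 63.8 and 82.5 CPM (log2 fold change −1.14, SE 0.11, adjusted p = 1.69e-15). PSMB4 and PSMB3 had log2 fold changes of −0.91 and −0.86 (adjusted p = 7.32e-10 and 4.44e-07). In PSMB3 the DMSO samples spread widely, from 59.2 to 110 CPM, and still did not reach the mocetinostat samples at 35.9 to 55.5 CPM. PSMB1 was least reduced of the β genes, at 170, 139 and 137 CPM against 109, 107 and 100 CPM (log2 fold change −0.50, SE 0.10, adjusted p = 1.63e-05), and it turned to 0.04 with GAPDH scaling. The thymus-specific PSMB11 had 1 count in 1 DMSO sample and was not tested.

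In the α ring, whose subunits form the gate of the core and are not catalytic, 5 of 7 tested genes (71.4%) were lower and 2 did not pass. Of all genes tested, 31.4% were lower. PSMA1 was the lowest, at 31.8, 19.6 and 16.9 CPM against 12.5, 6.20 and 11.6 CPM (log2 fold change −1.10, SE 0.23, adjusted p = 2.47e-05). PSMA4, PSMA2, PSMA7 and PSMA3 followed with log2 fold changes of −0.78, −0.69, −0.54 and −0.40. The PSMA2 call was lost in 6 of 14 alternatives: DESeq2, GAPDH scaling, thinning, and leaving out DMSO replicate 1 or mocetinostat replicate 1 or 3. PSMA5 was the least different, at 103, 97.7 and 103 CPM against 81.7, 87.4 and 92.0 CPM, and its log2 fold change of −0.23 did not pass the test (SE 0.11, adjusted p = 0.0595) although the conditions did not overlap. PSMA6 had a log2 fold change of −0.43 with a large error (SE 0.36, adjusted p = 0.288) on 2 to 67 counts per sample. PSMA8, a testis form, had 0 to 2 counts and was not tested.

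Some α genes were measured on few reads. PSMA2 shares 100% of the exon bases of its canonical transcript with a read-through gene on the same strand (AC010132.3), PSMA6 shares 81.4% (AL121594.1), PSMA1 67.0% (AC018523.2), PSMB10 56.1% (AC040162.1), and PSMD9 28.8% (AC069503.2). Per kilobase of the canonical transcript, these 5 genes had DMSO levels from 2.49 CPM (PSMD9) to 19.1 CPM (PSMA1), where PSMA7 had 381 CPM and PSMA3 had 109 CPM. How reads in shared exons were assigned is not given in the sources used here, so the levels of these 5 genes are uncertain. Without the 4 genes that share from 56.1% to 100% of these bases, 34 of 44 tested genes were lower and the median log2 fold change was −0.62.

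Every ATPase of the 19S base was lower, against 31.4% of all genes tested. PSMC6 had the largest difference, at 120, 120 and 97.3 CPM in DMSO samples and 45.8, 35.3 and 52.2 CPM in mocetinostat samples (log2 fold change −1.31, SE 0.13, adjusted p = 4.94e-15). PSMC3 was at 148, 156 and 200 CPM and then at 80.9, 63.8 and 86.6 CPM (log2 fold change −1.10, SE 0.11, adjusted p = 4.18e-14). For PSMC4 the values were 112, 122 and 118 CPM against 56.5, 61.4 and 56.8 CPM (log2 fold change −1.02, SE 0.11, adjusted p = 2.10e-12). Both PSMC3 and PSMC4 lay within 1 SE of the study's threshold. The ring as a whole therefore held 3 DRGs, and the other 3 ATPases lay above that threshold. PSMC1 and PSMC2 had log2 fold changes of −0.80 and −0.76 (adjusted p = 1.25e-05 and 1.54e-08). PSMC5 was the least reduced, at 136, 141 and 157 CPM against 92.6, 99.8 and 95.3 CPM (log2 fold change −0.60, SE 0.10, adjusted p = 4.25e-07). The 6 genes kept a negative sign with GAPDH scaling, where 3 of them (PSMC1, PSMC2 and PSMC5) no longer passed the test. PSMC1 shares 83.2% of its canonical exon bases with NRDE2 on the opposite strand. Such opposite-strand shares were 51.6% for PSMD7, 26.7% for ADRM1 and 13.7% for PSMC5, and smaller for the other members. The use of strand in counting is not given in the sources used here.

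Of the 12 non-ATPase subunits, 9 (75%) were lower, against 31.4% of all genes tested, and 3 did not pass. PSMD11, a lid subunit that braces the cap against the core, was the 1 DRG among them. It was at 273, 251 and 255 CPM in DMSO samples and 110, 113 and 129 CPM in mocetinostat samples (log2 fold change −1.15, SE 0.09, adjusted p = 1.88e-18). Next came the lid subunits PSMD12 (−0.72) and PSMD8 (−0.70) and the base scaffold PSMD1 (−0.72), followed by PSMD7, the inactive partner of the deubiquitinase, at −0.59. The second base scaffold, PSMD2, had the highest CPM of the 50 genes, at 558, 589 and 603 CPM against 426, 418 and 428 CPM (log2 fold change −0.46, SE 0.07, adjusted p = 8.90e-08).

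ADRM1 and PSMD4, which bind ubiquitin chains, had log2 fold changes of −0.17 (adjusted p = 0.0826) and −0.28 (adjusted p = 0.0134). PSMD14, the deubiquitinase, had −0.23 (adjusted p = 0.0511). PSMD3 was closest to 0 among the 12, at 267, 280 and 299 CPM against 257, 259 and 237 CPM (log2 fold change −0.17, SE 0.08, adjusted p = 0.0713). These 4 genes turned positive with GAPDH scaling, between 0.25 and 0.36, and PSMD4 also did not pass the test with a minimum of 10 counts in every sample, after thinning, without DMSO replicate 3, or without mocetinostat replicate 1. Grouped by position, 9 of the 10 base genes (the ATPases with PSMD1, PSMD2, PSMD4 and ADRM1) and 6 of the 8 lid genes were lower. These shares were 90% and 75%, against 31.4% of all genes tested. Median log2 fold changes were −0.74 for the base and −0.52 for the lid. SEM1, the small lid subunit that the naming rule leaves out, was lower too (log2 fold change −0.52, SE 0.14, adjusted p = 0.00123), and at 0.021 with GAPDH scaling.

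**Figure D2:**
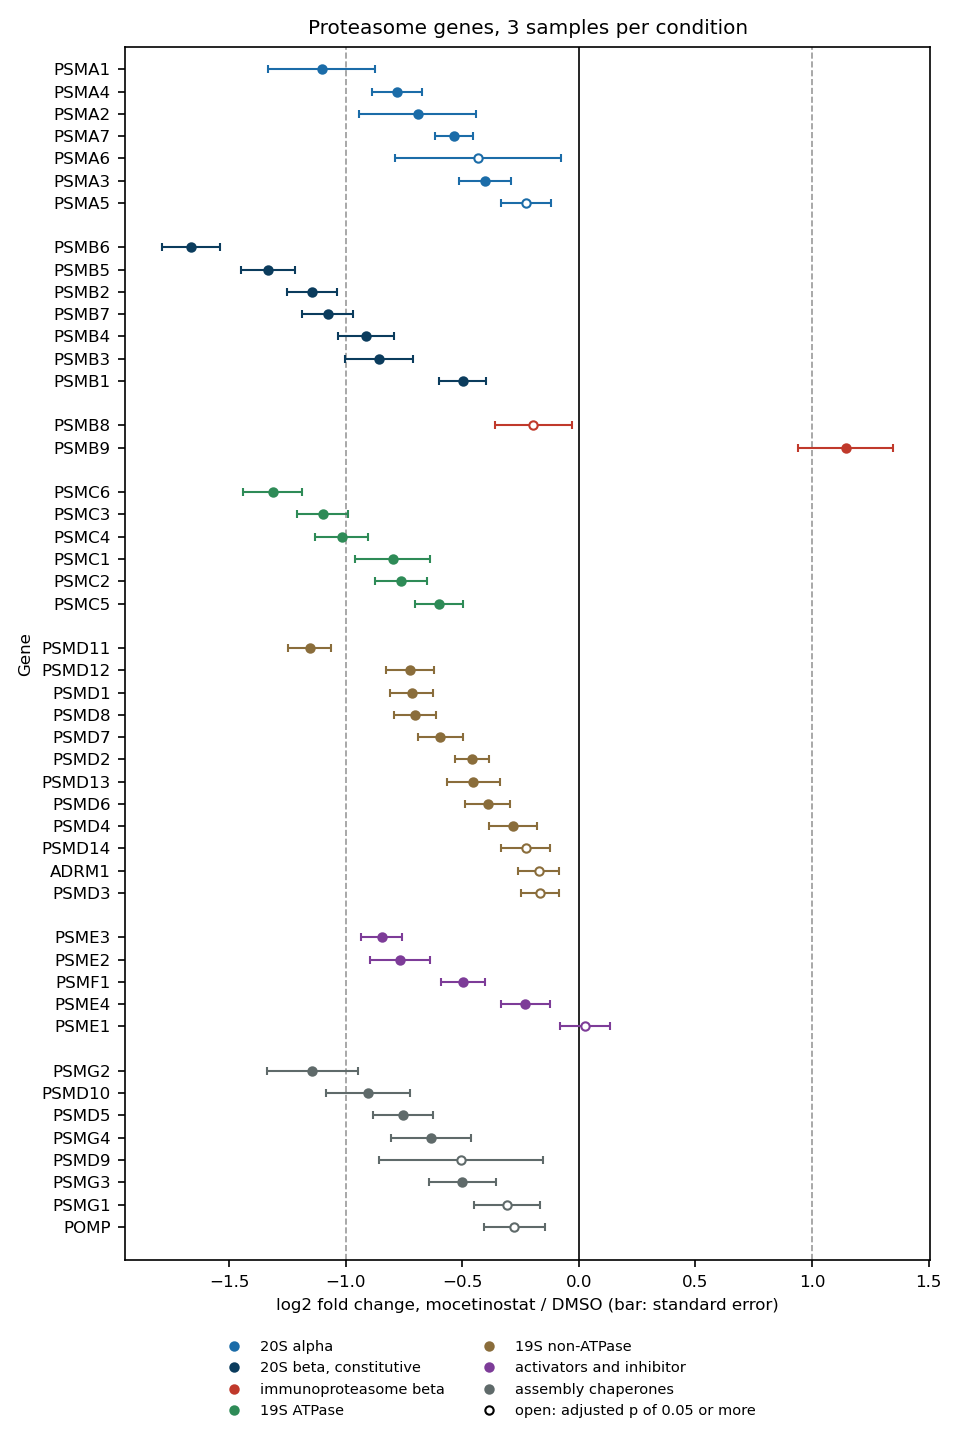
Log2 fold change between mocetinostat and DMSO (horizontal axis, bars are the standard error of the edgeR fit) for the 47 proteasome genes tested, grouped by subcomplex and sorted within it, with dashed lines at −1 and 1 and open points where the adjusted p was 0.05 or more. PSMB9 is the 1 filled point to the right of 0, PSMB6 lies farthest to the left at −1.66, and the constitutive β and ATPase genes lie farther left than most of the α and non-ATPase genes.

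The immunoproteasome subunits did not move together. PSMB9, which takes the place of PSMB6, was at 9.86, 12.7 and 11.6 CPM in DMSO samples and 26.8, 23.5 and 23.2 CPM in mocetinostat samples. All 3 mocetinostat samples were above all DMSO samples, a 2.21-fold higher level (log2 fold change 1.14, SE 0.20, adjusted p = 1.37e-06). Its log2 fold change ranged from 0.89 to 1.68 over the alternative settings, with an adjusted p of at most 0.000443, and 0.89, under the study's threshold of 1, was the value with no expression filter. PSMB8, which takes the place of PSMB5, was at 29.3, 30.6 and 34.6 CPM against 28.7, 28.5 and 24.9 CPM. The conditions did not overlap, and the log2 fold change of −0.19 did not pass the test (SE 0.16, adjusted p = 0.300).

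PSMB10, which takes the place of PSMB7, had 31, 17 and 11 counts in DMSO samples and 0 in each mocetinostat sample, so it did not pass the expression filter. The 59 summed DMSO counts equal 2.61 CPM, and against a floor of 3 counts summed over the mocetinostat samples (0.331 CPM) PSMB10 was at least 7.88-fold lower. This limit covers counting error in the mocetinostat samples only and takes the DMSO level as measured. Without mocetinostat replicate 1, the deepest of the 3, the limit was 3.50-fold, and without any other sample it was 5.78-fold to 9.15-fold. It was kept in 6 alternative fits. Its adjusted p was 4.19e-06 (edgeR with no filter), 0.00146 (DESeq2), and at most 0.00239 in the edgeR fits that left out a sample and kept it. Its read-through neighbour AC040162.1, which shares 56.1% of its exon bases, had 21, 9 and 15 counts in DMSO samples and 3, 2 and 0 in mocetinostat samples. Both were therefore low or at 0 in the same samples, and reads in the shared exons cannot be told apart.

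Within each library, the balance between the exchangeable subunits changed in a way that does not depend on scaling. PSMB8 made up 18.7%, 19.7% and 20.1% of the PSMB5 and PSMB8 counts in DMSO samples and 34.9%, 35.7% and 33.7% in mocetinostat samples. The log2 ratio of PSMB8 to PSMB5 differed by 1.14 (2.20-fold), although PSMB8 itself did not pass the test. PSMB9 made up 7.94%, 9.10% and 8.13% of its pair with PSMB6 and then 44.9%, 34.5% and 34.6%, a difference of 2.73 in the log2 ratio (6.65-fold). PSMB10 made up 1.57%, 2.49% and 1.10% of its pair with PSMB7 and then 0% in all 3 samples, or 0 of 663 counts, which allows a share of up to 0.452%. The size of that difference is set by the count added to the zeros, at −2.75 with 0.5 added and −1.79 with 1 added. Groups did not overlap in any of the 3 ratios. The exact two-sided permutation p was 0.1 for each, also after adjustment over the 3 ratios, and 0.1 is the smallest value that 3 samples against 3 can give.

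Per kilobase of transcript, the constitutive catalytic genes stood far above their counterparts in DMSO samples, with mean levels of 125 (PSMB5), 151 (PSMB6) and 156 CPM per kilobase (PSMB7) against 28.0 (PSMB8), 11.2 (PSMB9) and 2.72 (PSMB10). In mocetinostat samples the levels were 49.2, 49.1 and 74.1 CPM per kilobase against 24.4, 24.1 and 0. PSMB8 and PSMB9 were then at a like level, while in DMSO samples PSMB8 had been above PSMB9 in every sample.

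**Figure D3:**
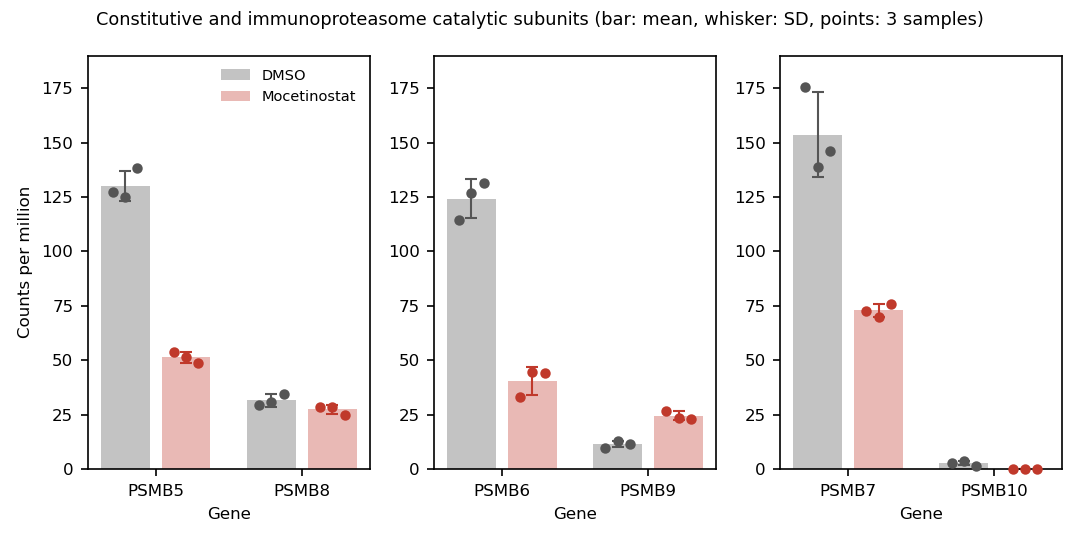
CPM (vertical axis) of each constitutive catalytic subunit and the immunoproteasome subunit that replaces it (horizontal axis), in 3 panels, with bars for the mean, whiskers for the SD, and points for the 3 DMSO (grey) and 3 mocetinostat (red) samples. PSMB5, PSMB6 and PSMB7 drop by more than the spread of their samples, PSMB8 lies between 24.9 and 34.6 CPM, PSMB9 rises from 11.4 to 24.5 CPM, and PSMB10 is at 0 in the mocetinostat samples.

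Immunoproteasome genes are abundant in blood cells, so markers of other cell types were set beside these values. Of 7 haematopoietic markers, CD3E had 0 counts in all 6 samples, PTPRC had 0 to 9 counts in DMSO and 0 to 3 in mocetinostat samples, and LYZ and CD74 had at most 4 counts in any sample. CD14 and HLA-DRA were the 2 that passed the filter and both were higher, HLA-DRA from 0 counts in each DMSO sample to 38, 20 and 18. CD14 had 0.208 to 1.36 CPM in DMSO samples. Both met the filter only through their mocetinostat samples, so the filter itself fixed their direction. The list summed to 1.77–2.50 CPM in DMSO samples and 13.7–24.8 CPM in mocetinostat samples. The 3 endothelial markers summed to 4.98–7.08 CPM and then 16.1–22.8 CPM. Of these, PECAM1 and VWF were higher, and CDH5 did not pass (log2 fold change 0.12, adjusted p = 0.834 in edgeR). PECAM1 and VWF had only 7 to 10 and 6 to 14 counts per DMSO sample and met the filter through their mocetinostat samples. The 9 chondrocyte markers summed to 109–132 CPM and then 244–280 CPM, of which SOX9, the chondrocyte master factor, held the most (95.5–122 CPM in DMSO samples). COL2A1, the main cartilage collagen gene, was at only 1.46–2.80 CPM with DMSO. The part of these shifts in the PSMB9 result was not tested.

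The activators that cap the core in place of the 19S particle were split. PSME1, the α chain of the interferon-inducible ring PA28αβ, was at 89.7, 92.9 and 96.8 CPM in DMSO samples and 102, 83.7 and 94.9 CPM in mocetinostat samples. The samples of both conditions were mixed, with a log2 fold change of 0.03 (SE 0.11, adjusted p = 0.845). Its partner chain PSME2 was at 68.8, 75.8 and 78.3 CPM against 45.8, 35.9 and 46.4 CPM, which did not overlap (log2 fold change −0.77, SE 0.13, adjusted p = 4.15e-07). The 2 genes lie on chromosome 14, and the windows shown above hold the antioxidant response element core in both and the ISRE letters in PSME2 alone.

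PSME3, the nuclear activator PA28γ, was at 261, 289 and 268 CPM against 146, 144 and 164 CPM, the lowest log2 fold change of the activators (−0.84, SE 0.09, adjusted p = 1.76e-13). PSME4, the large activator PA200 that is linked to histone turnover, was at 143, 127 and 115 CPM against 113, 122 and 95.3 CPM. These ranges overlapped, and its log2 fold change of −0.23 was at the edge of the test (SE 0.10, adjusted p = 0.0488), which it did not pass under 8 of 14 alternatives, while with GAPDH scaling it was higher. PSMF1, the inhibitor PI31, was at 176, 182 and 174 CPM against 136, 116 and 121 CPM (log2 fold change −0.50, SE 0.09, adjusted p = 4.60e-06). With that scaling PSME1, PSME4 and PSMF1 had log2 fold changes of 0.56, 0.31 and 0.04, and PSME2 and PSME3 stayed negative.

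Among the assembly chaperones 5 of 8 (62.5%) were lower, against 31.4% of all genes tested. PSMG2, which pairs with PSMG1 to build the α ring, was the 1 DRG, at 39.8, 26.2 and 27.9 CPM against 14.3, 16.7 and 12.8 CPM (log2 fold change −1.14, SE 0.20, adjusted p = 4.95e-07). PSMG1 itself had a log2 fold change of −0.31 that did not pass (SE 0.14, adjusted p = 0.0523). The second α-ring pair, PSMG3 and PSMG4, had −0.50 and −0.63 (adjusted p = 0.00174 and 0.00100). POMP, which brings the β subunits onto the α ring, was the least different, at 63.2, 57.3 and 53.6 CPM against 47.2, 52.1 and 46.0 CPM (log2 fold change −0.28, SE 0.13, adjusted p = 0.0572). Of the chaperones of the ATPase ring, PSMD10 (gankyrin) and PSMD5 were lower at −0.90 and −0.75 (adjusted p = 1.04e-05 and 4.01e-07), and PSMD9 had −0.51 (SE 0.35, adjusted p = 0.208) on 7 to 90 counts per sample.

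Apart from the members by the naming rule, 51 genes of the pathway were taken in 4 lists, which include the lid subunit SEM1. Of these, 14 (27.5%) were higher and 21 (41.2%) lower at an adjusted p under 0.05, where 32.9% and 31.4% of all genes tested were. The 51 genes held 4 URGs and 2 DRGs, where 20.2% and 8.18% of all genes tested were URGs and DRGs. Their median log2 fold change was −0.18. Of 6 ubiquitin and E1 genes, 2 (33.3%) were higher and 3 (50%) lower. UBB, a polyubiquitin gene that supplies ubiquitin under stress, rose slightly, from 728, 715 and 663 CPM to 753, 819 and 894 CPM (log2 fold change 0.23, SE 0.07, adjusted p = 0.00404). It did not pass without mocetinostat replicate 3 (adjusted p = 0.124) or with no filter, where it turned to −0.029. Of 16 shuttles, receptors and proteasome-bound enzymes, with SEM1 counted among them, 9 (56.2%) were lower and 1 (6.25%), ZFAND5, was higher. ECPAS, a scaffold that binds the assembled particle, was the 1 DRG among them, at 254, 243 and 250 CPM against 84.7, 91.7 and 93.2 CPM (log2 fold change −1.48, SE 0.09, adjusted p = 4.18e-23).

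Genes of the NRF1 pathway did not share one direction, with 3 of 12 (25%) higher and 5 (41.7%) lower, shares not far from those of all genes tested (32.9% and 31.4%). NFE2L1 itself was at 389, 420 and 464 CPM against 450, 468 and 445 CPM (log2 fold change 0.10, SE 0.08, adjusted p = 0.258). NFE2L2, the related factor of the oxidative stress response, had a log2 fold change of 0.03 (adjusted p = 0.823), and DDI2, the protease that releases NRF1 from the endoplasmic reticulum, had 0.25 (adjusted p = 0.0784). NFE2L3, another factor of the same family, was a URG, from 25.6, 29.4 and 26.4 CPM to 82.3, 82.4 and 89.9 CPM (log2 fold change 1.65, SE 0.13, adjusted p = 1.21e-18). Of the small MAF partners, MAFF was a URG, from 16.0, 33.7 and 29.6 CPM to 69.8, 65.7 and 71.7 CPM (log2 fold change 1.44, SE 0.16, adjusted p = 7.03e-13), while MAFK was higher and MAFG lower (0.84 and −0.39, the second of which turned to 0.15 with GAPDH scaling and did not pass after thinning, adjusted p = 0.133). The 3 NF-Y subunits NFYA, NFYB and NFYC, which bind CCAAT, were each lower, with log2 fold changes from −0.46 to −0.60, but with GAPDH scaling none passed and NFYA turned to 0.075. NFYB also lost its call after thinning (adjusted p = 0.143) and without mocetinostat replicate 1 (adjusted p = 0.0892). The 11 proteasome genes with the antioxidant response element core in the window had a median log2 fold change of −0.31, and the 30 tested genes with a window that lacked these letters had −0.71, a description that was not tested. For CCAAT the medians were −0.59 (17 genes) and −0.74 (24 genes).

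In the interferon and antigen presentation list, 8 of 17 genes (47.1%) were higher and 4 (23.5%) lower, against 32.9% and 31.4% of all genes tested. NLRC5, the activator of MHC class I genes, rose from 23.0, 23.3 and 21.2 CPM to 42.6, 59.5 and 48.5 CPM (log2 fold change 1.12, SE 0.16, adjusted p = 2.80e-09). HLA-B was the second URG, from 157, 178 and 200 CPM to 459, 485 and 442 CPM (log2 fold change 1.37, SE 0.08, adjusted p = 1.93e-24). IRF1, which acts on interferon-responsive promoters, had a log2 fold change of 0.69 (SE 0.12, adjusted p = 1.53e-06). The DRG of the list was IFNGR2, a chain of the interferon-γ receptor, from 115, 122 and 99.9 CPM to 51.9, 53.3 and 51.8 CPM (log2 fold change −1.10, SE 0.12, adjusted p = 4.69e-13). The other chain, IFNGR1, went the other way and was higher (log2 fold change 0.83, SE 0.13, adjusted p = 2.51e-08).

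TAP1, the peptide transporter gene next to PSMB9, did not follow it. The canonical transcripts of both genes start 488 bases apart on opposite strands of chromosome 6. TAP1 was at 34.7, 35.6 and 29.9 CPM against 43.6, 27.3 and 35.6 CPM, with mixed samples and a log2 fold change of 0.15 (SE 0.16, adjusted p = 0.411). TAP2, its partner chain, and TAPBP, which ties the transporter to MHC class I, were lower (−0.40 and −0.87). The TAP2 call was lost with GAPDH scaling (0.14), with DESeq2 (adjusted p = 0.0722), with a minimum of 10 counts in every sample (adjusted p = 0.0614), after thinning (adjusted p = 0.161), and without DMSO replicate 3 or mocetinostat replicate 3 (adjusted p = 0.0510 and 0.0524).

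**Figure D4:**
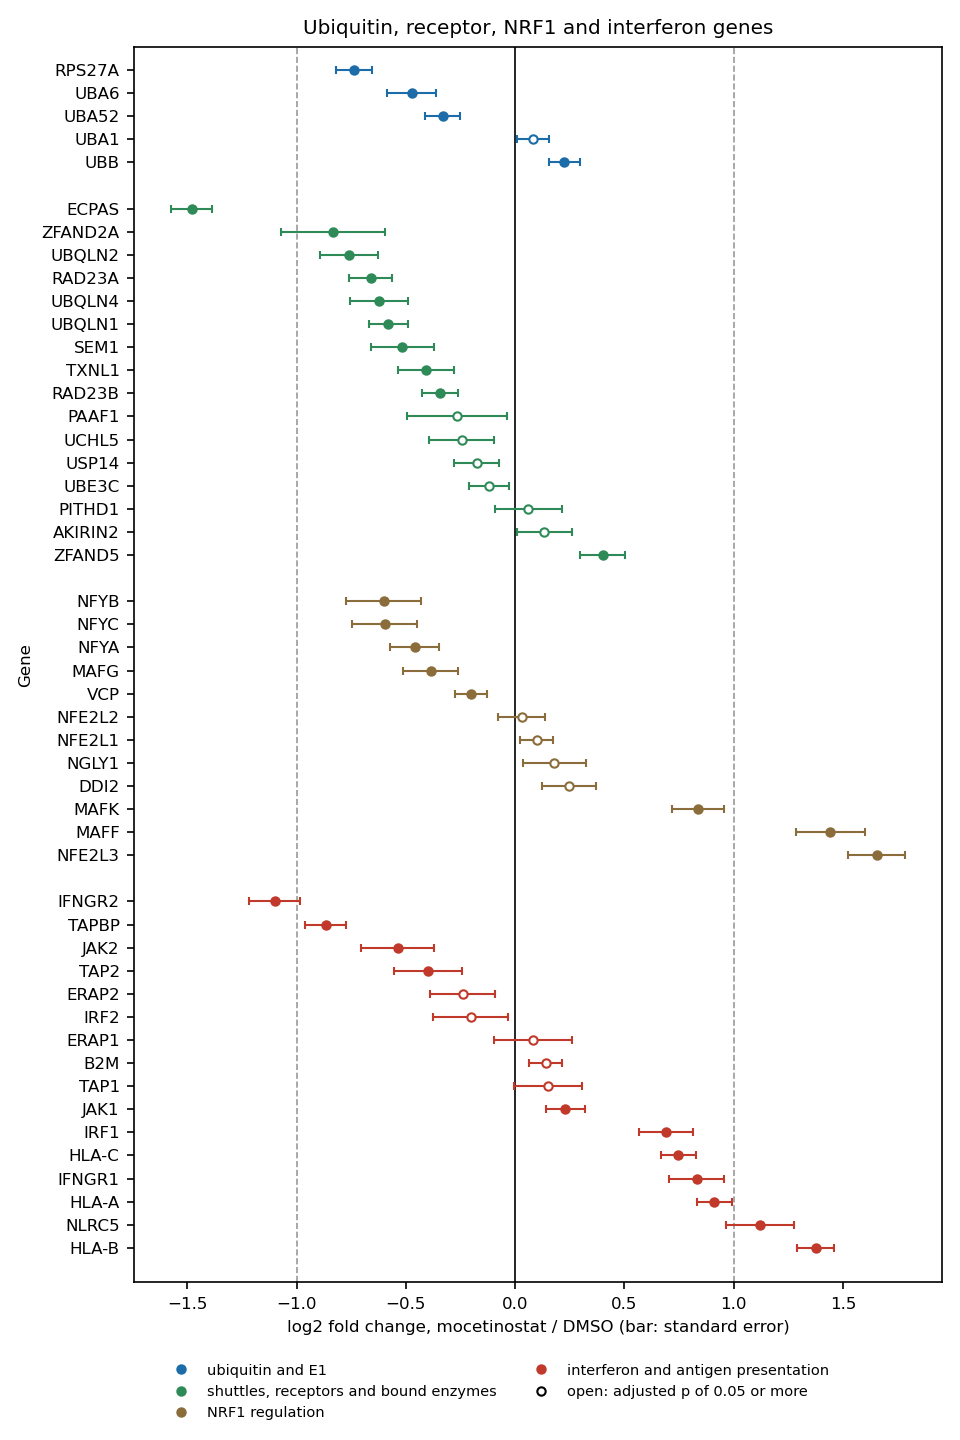
Log2 fold change between mocetinostat and DMSO (horizontal axis, bars are the standard error of the edgeR fit) for 49 of the 51 genes of the ubiquitin, receptor, NRF1 and interferon lists, with dashed lines at −1 and 1 and open points where the adjusted p was 0.05 or more. ECPAS lies farthest to the left at −1.48 and NFE2L3 farthest to the right at 1.65, with NFE2L1 and NFE2L2 open and close to 0.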

How the data were processed

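RNA-Seq of 6 samples was analysed. The authors deposited whole raw counts per gene. According to the study's methods and processing notes, single reads were trimmed, cleared of ribosomal RNA, aligned to GRCh38 with STAR 2.6.1d, and counted with featureCounts 1.6.4. Strand setting and treatment of shared reads are not given in the sources used here. Counts were scaled by TMM in edgeR 4.0.16 (R 4.3.3, limma 3.58.1), filtered with filterByExpr (minimum count 10), and tested by quasi-likelihood with treatment alone in the model. P-values were adjusted by Benjamini-Hochberg over all 13966 genes tested. The SE is the log2 fold change over the root of F. Depth was 1619344 to 11031132 counts per sample, so genes with few reads were less precise with mocetinostat. Replicate pairs differed by more than sampling noise (chi-square per degree of freedom 1.96 to 7.19), and the common biological coefficient of variation was 9.30%. Floors are 3 counts. Ratios used counts plus 0.5. Exons came from GENCODE 44 (99.5% of genes matched) and promoters from RefSeq. Members and lists were chosen with earlier results of these data known. Named genes are all immunoproteasome, catalytic, activator and inhibitor genes, members past the study's thresholds, the extremes of each subcomplex, and 10 related genes plus any past those thresholds, of which some are not reported here. Others named were chosen after their values were seen. Alternatives were DESeq2 1.42.0, RLE, library size, GAPDH scaling, other filters, a replicate block, thinning to 1619344 counts, and leaving out each sample. The fit was tested on simulated counts. Figures used matplotlib 3.10.9 in Python 3.11.15 with pandas 2.3.3.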

Additional observations from a re-analysis of the deposited data

How the results depend on the processing

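The proteasome counts moved past 1.5 times with 2 settings. GAPDH scaling gave 12 lower, 7 higher and 1 DRG, and no filter gave 20 DRGs and 0 URGs, since it moved the genes of the main test by −0.25. Without each sample in turn there were 33 to 41 lower, 7 to 13 DRGs, and 1 higher. Related genes with GAPDH scaling were 27 higher (10 URGs) and 4 lower (0 DRGs); DRGs were 5 with no filter and 1 after thinning. All genes with GAPDH scaling were 7710 higher (4425 URGs) and 1371 lower (284 DRGs); a minimum of 10 counts in every sample gave 1620 URGs and 704 DRGs, and no filter 2120 DRGs.

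Subcomplex medians (GAPDH scaling, no filter, range without each sample) were −0.0071, −0.73 and −0.70 to −0.52 for α; −0.54, −1.36 and −1.18 to −0.98 for constitutive β; −0.37, −1.16 and −0.96 to −0.89 for ATPases; and −0.032, −0.82 and −0.71 to −0.56 for chaperones. Non-ATPases had 0.076 and −0.71, and activators and inhibitor 0.037 and −0.75. The 2-gene immunoproteasome median of 0.47 was 1.01 and −0.44, −0.23 with DESeq2, and −0.26 to 0.47 without each sample, since PSMB10 enters some fits. ATPases had −0.94 (DESeq2), −0.83 (10 counts in every sample) and −0.81 (thinned), non-ATPases −0.38 (10 counts in every sample), and β −0.93 (thinned). The PSMB8 to PSMB5 difference was 1.00 after thinning, and that of PSMB10 to PSMB7 −1.79 with 1 count added.

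With GAPDH scaling the sign turned for PSMA3 (0.13), PSMA5 (0.31), PSMA6 (0.11), PSMB1 (0.038), PSMB8 (0.34), ADRM1 (0.36), PSMD2 (0.069), PSMD3 (0.36), PSMD4 (0.25), PSMD6 (0.14), PSMD13 (0.083), PSMD14 (0.31), PSME4 (0.31), PSMF1 (0.037), POMP (0.26), PSMD9 (0.039), PSMG1 (0.23) and PSMG3 (0.034). PSMD3 was 0.0038 after thinning. PSME1 was −0.011 (DESeq2), −0.22 (no filter), −0.038 (thinned) and −0.063 to 0.067 without each sample. Calls of PSMA2, PSMD4 and PSME4 were lost as given above, that of PSMA3 after thinning, and that of PSMG3 without mocetinostat replicate 1. Leaving out samples for the PSMB10 limit was chosen after seeing the data. The cause was not tested.

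Same-numbered samples did not deviate together (r = 0.0078, 0.0116 and −0.0162 over 13966 genes). These correlations include counting noise and do not settle whether such samples share an experiment. The main fit held treatment alone and did not use the numbers as pairs. The replicate block gave 37 lower, 1 higher and 10 DRGs, with 1 call gained (PSMD14).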

Other observations

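Antisense and pseudogene rows of the family were measured apart from the members. PSMA3-AS1 was lower, from 43.1, 36.0 and 44.2 CPM to 23.8, 22.9 and 22.0 CPM (log2 fold change −0.84, SE 0.16, adjusted p = 4.73e-06 in edgeR), in the direction of PSMA3. PSMG3-AS1 was higher, from 4.43, 1.87 and 2.51 CPM to 8.33, 8.06 and 7.05 CPM (log2 fold change 1.32, SE 0.37, adjusted p = 0.00134 in edgeR), where PSMG3 was lower. PSMB8-AS1 had 0 to 13 counts and did not pass the filter. Whether counting used strand is not given, so reads in exon bases that a gene shares with its antisense partner cannot be told apart. Over all annotated exons, PSMA3 shares 0% of its bases with a gene on the opposite strand. PSMG3 shares 3.04% with PSMG3-AS1, and PSMB8 shares 17.3% with PSMB8-AS1. Of 32 rows named as pseudogenes of the family, 12 had 0 counts in every sample, and the rest summed to 45, 28 and 40 counts in DMSO samples and 17, 12 and 14 in mocetinostat samples.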
